A study of Schizosaccharomyces pombe with 3 samples.

Results

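The outer 50 kb at each end of chromosome II of fission yeast, Schizosaccharomyces pombe, were covered on the array by 272 of 41551 genome tiles. The rule that chose the tiles is one of position, and the ends were taken up with earlier results of these data known. The left end held 117 tiles, from array position 300 to 50100, and the right end held 155 tiles, from 4461000 to 4510500. Tiles were spaced by 300 bp, and distances below are counted inward from the outermost tile of each end. The array's sequence stopped short of the chromosome's end: chromosome II of the reference assembly reaches 29.3 kb beyond the last tile on the right, so these distances are not distances from the telomere.

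The measurement was chromatin immunoprecipitation of GFP-tagged Psc3, a subunit of the cohesin complex, read on a two-colour tiling array with ChIP DNA in Cy5 and whole-cell input DNA in Cy3. There were 3 groups with 1 array each. The clr4d cells lacked Clr4 and grew in rich medium at 30 °C. The cdc10-v50 cells were grown at 26 °C and then held at 35 °C for 4 h, which per the labels arrests them in G1. The wild type (WT) had the mating-type allele mat1Msmto, the markers leu1-32 and ade6-216, and the tagged gene as Psc3-GFP::kanMX, and grew at 30 °C. The labels give no further alleles for the mutants. Cells of all 3 groups were fixed with formaldehyde for 30 min at 18 °C and with DMA for 45 min. Precipitation used an antibody against GFP in all 3 groups. The comparison of each mutant with WT asks where Psc3 binding depends on Clr4 and how it stands in G1.

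Cohesin is a ring-shaped complex that holds sister chromatids together, and fission yeast heterochromatin is rich in it. Clr4 is the methyltransferase that places methyl groups on lysine 9 of histone H3, the mark bound by the heterochromatin protein Swi6, and Swi6 in turn binds Psc3. Subtelomeres are one of the main heterochromatic domains of this yeast, and the ends of its chromosomes share long stretches of similar sequence. Cdc10 is a subunit of the transcription factor that switches on genes needed to pass from G1 into S phase.

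There were no replicates, so no value below has a replicate error and none has a p-value. The SD given is that between tiles of 1 array. As a guide to the scatter of single tiles, adjacent tiles of the left end differed by a median of 0.25 in clr4d, 0.26 in cdc10-v50 and 0.21 in WT on the log2 scale, and those of the right end by 0.26, 0.21 and 0.13. The WT image was read with an older version of the scanner software than the mutant images. Its Cy5 channel has an upper limit of 65526, against limits of 777470 in clr4d and 777453 in cdc10-v50. In a mutant set against WT, genotype and scan therefore cannot be told apart, nor can culture temperature where the mutant is cdc10-v50. Of the tiles, 44 of 117 (37.6%) on the left and 40 of 155 (25.8%) on the right were saturated in WT Cy5, with 0 in either mutant. In the outer 15 kb this was 34 of 37 tiles on the left and 28 of 40 on the right. At those tiles a WT ratio is a minimum and a mutant minus WT difference is a maximum, and means over such tiles are bounds in the same way. The exception is 1 right tile that was saturated in WT Cy3 too, so that its ratio has no bound. Right-end values that include it are bounds but for that tile. The saturation mark is not a clean cut. The unmarked left tile at 9.9 kb had a processed WT Cy5 intensity of 4929, and the marked one at 8.7 kb had 4909. WT values of the brightest unmarked tiles may thus be limited too, and unsaturated below means not marked. Spots marked non-uniform were left out: 3 on the left and 14 on the right in cdc10-v50, 2 and 3 in WT, and 0 in clr4d. Coverage of the left end was broken, with 50 of 167 tile positions empty and the longest gap between 23.4 and 26.7 kb, against 11 of 166 empty on the right.

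Psc3 covered most of both ends in cdc10-v50 cells. In WT cells it stood above the array median at most tiles, and in clr4d cells it was near that median. On the left end the median log2 ratio of ChIP over input was 0.15 in clr4d (SD between tiles 0.58, 117 tiles), 2.41 in cdc10-v50 (SD 0.95, 114 tiles) and at least 1.15 in WT (SD 0.81, 115 tiles). On the right end it was 0.02 in clr4d (SD 0.54, 155 tiles), 1.82 in cdc10-v50 (SD 0.97, 141 tiles) and at least 0.94 in WT (SD 0.63, 152 tiles). Values are centred so that 0 is the median genome tile of the array, and the medians of the chromosome arms lay at -0.01 in clr4d, -0.04 in cdc10-v50 and -0.05 in WT. In linear terms the left end stood 1.11-fold above that tile in clr4d, 5.33-fold in cdc10-v50 and at least 2.22-fold in WT. Over tiles unsaturated on all arrays the medians were 0.18 in clr4d, 2.11 in cdc10-v50 and 0.88 in WT on the left, and 0.03, 1.55 and 0.78 on the right, so the order of the arrays was the same there.

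Counts of tiles with a ratio of at least 1, which is 2-fold over the array median, follow. In clr4d such tiles numbered 5 of 117 (4.27%) on the left and 7 of 155 (4.52%) on the right, against 8.19% of all genome tiles. In cdc10-v50 they numbered 111 of 114 (97.4%) and 119 of 141 (84.4%), against 9.64% of the genome. In WT they numbered at least 67 of 115 (58.3%) and 70 of 152 (46.1%), against 9.34%. The clr4d share was thus below its genome share, and the shares of the other arrays were several times theirs. Leaving out all tiles saturated in WT, the WT shares were 39.7% on the left and 31.3% on the right.

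**Figure D1:**
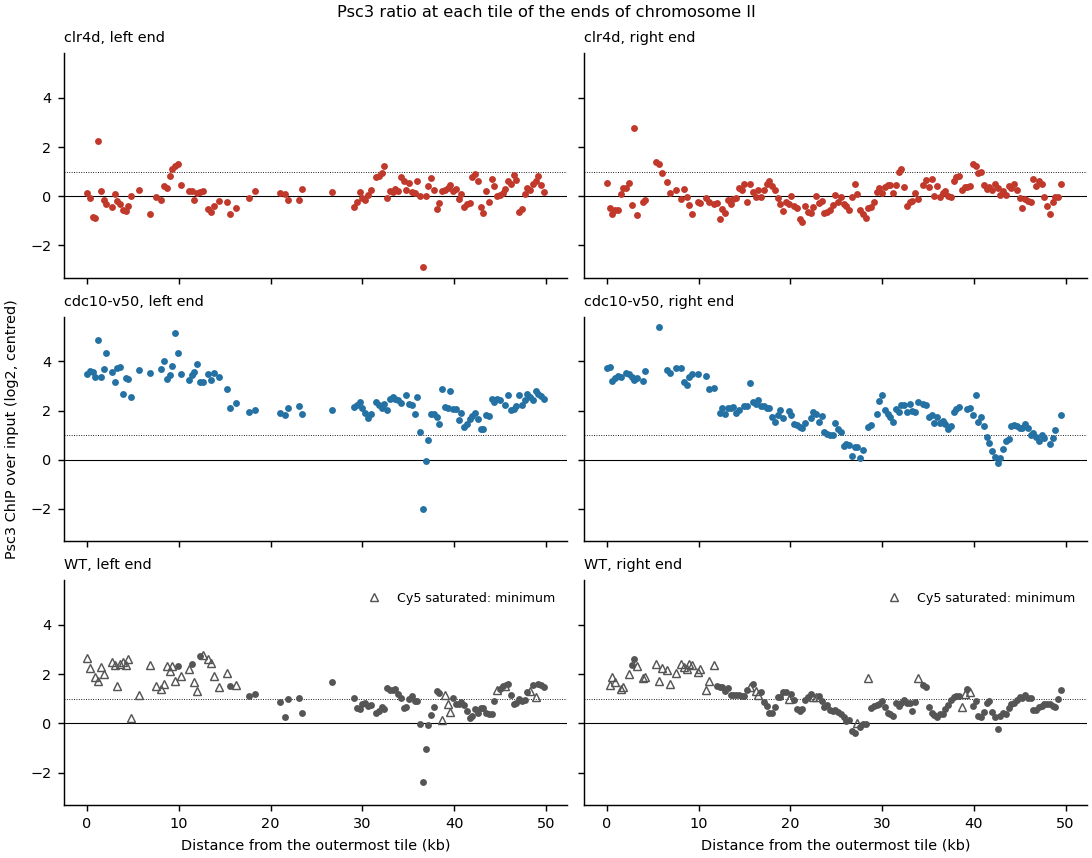
Centred log2 ratio of Psc3 ChIP over input at each tile, against the distance from the outermost tile in kb, for clr4d, cdc10-v50 and WT from top to bottom and for the left and right end. Open triangles are tiles saturated in WT Cy5, whose ratios are minimum values; the dotted line marks a ratio of 1, and most clr4d tiles lie between -1 and 1 while 111 of 114 cdc10-v50 tiles of the left end lie at or above 1.

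The outermost tiles show the pattern one by one. At the outermost left tile the ratio was 0.14 in clr4d, 3.51 in cdc10-v50 and at least 2.67 in WT. The next tile, 0.3 kb in, had -0.08 in clr4d, 3.60 in cdc10-v50 and at least 2.24 in WT. The third, at 0.6 kb, had -0.86 in clr4d and 3.57 in cdc10-v50, with the WT spot left out as non-uniform. The clr4d values scatter on both sides of 0, and those of cdc10-v50 are nearly equal. On the right end the outermost tile had 0.53 in clr4d and 3.73 in cdc10-v50, again without a WT value. The tiles at 0.3 and 0.6 kb had -0.47 and -0.73 in clr4d, 3.79 and 3.19 in cdc10-v50, and at least 1.57 and 1.88 in WT. At the innermost 3 left tiles, from 49.2 to 49.8 kb, the ratios ran from 0.16 to 0.81 in clr4d, from 2.48 to 2.68 in cdc10-v50 and from 1.47 to 1.60 in WT. The 3 tiles just beyond the limit continued these levels, with 0.45 to 0.60 in clr4d, 2.40 and 2.48 at the 2 measured in cdc10-v50, and up to 1.33 in WT. The signal on the left thus did not end at the 50-kb limit. On the right the innermost 3 tiles had -0.04 to 0.50 in clr4d, 1.21 and 1.82 at the 2 measured in cdc10-v50 and 0.67 to 1.37 in WT, and the 3 just beyond had 0.45 to 0.61, 1.42 to 1.94 and at least 1.03 to 1.33.

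By 5-kb step, the clr4d profile was flat and those of cdc10-v50 and WT were highest in the outer 15 kb of the left end and the outer 10 kb of the right. The clr4d step means of the left end lay between -0.26 and 0.45, and those of the right between -0.45 and 0.45. In cdc10-v50 the left steps of the outer 15 kb had means of 3.52 (SD 0.55, 16 tiles), 3.88 (SD 0.57, 9 tiles) and 3.42 (SD 0.22, 11 tiles). The same steps in WT had at least 2.09 (SD 0.63, 14 tiles), 1.88 (SD 0.46, 10 tiles) and 2.14 (SD 0.50, 11 tiles). From 15 to 45 kb on the left the step means ran from 1.63 to 2.25 in cdc10-v50 and from 0.44 to 1.49 in WT, and between 45 and 50 kb they were 2.44 (SD 0.24) and 1.27 (SD 0.29), both above the step before. On the right the outer 2 steps had 3.43 (SD 0.19, 13 tiles) and 3.66 (SD 0.65, 10 tiles) in cdc10-v50 and at least 1.92 (SD 0.39) and 2.16 (SD 0.27) in WT. There the signal declined to 0.91 in cdc10-v50 (SD 0.68) and 0.32 in WT (SD 0.55) between 25 and 30 kb, stood at 2.08 (SD 0.26) and 0.86 (SD 0.43) in the next step, and was 1.11 (SD 0.31) and 0.86 (SD 0.23) between 45 and 50 kb. The outermost minus innermost step was -0.44 in clr4d and 1.08 in cdc10-v50 on the left. In WT it was 0.82 there, a difference of 2 minimum values that bounds nothing. On the right it was 0.04 in clr4d, 2.32 in cdc10-v50 and at least 1.06 in WT.

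**Figure D2:**
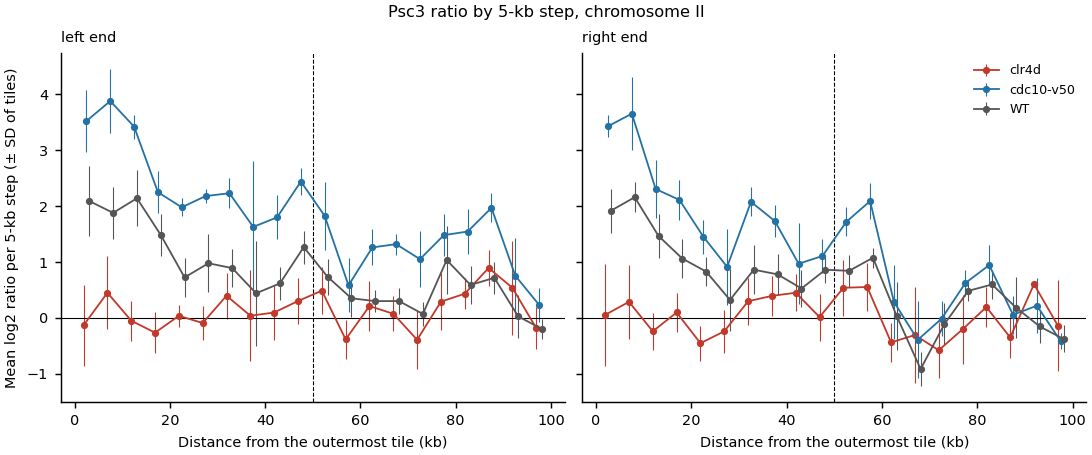
Mean centred log2 ratio per 5-kb step against the distance from the outermost tile in kb, out to 100 kb, for clr4d, cdc10-v50 and WT, with error bars showing the SD between tiles of the step. The dashed line marks the 50-kb limit; outside it, toward the chromosome end, cdc10-v50 has the highest measured mean in all 10 steps of either end, where WT means of the outer steps are minimum values, and clr4d stays between -0.45 and 0.45.

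The stretches of enrichment show how continuous the binding was at the measured tiles. A stretch is a run of at least 3 adjacent measured tiles whose running mean over 3 tiles is at least 1, joined within 1 kb. Tiles within a run count as adjacent whatever the gap between them, so lengths include empty positions, which were more frequent on the left. The left WT stretch from 23.4 to 29.1 kb rested on 3 tiles and spanned the longest gap. In cdc10-v50 the stretches held 110 of 114 measured tiles on the left and 116 of 141 on the right. In clr4d there were 0 on either end. In cdc10-v50 the left end held 2 stretches, from 0 to 36.0 kb and from 37.5 to 49.8 kb, which together covered 48.9 kb with means of 2.92 and 2.12. The right end held 3 in cdc10-v50, from 0 to 25.2 kb (mean 2.46), from 28.5 to 41.1 kb (mean 1.89) and from 43.8 to 46.5 kb (mean 1.24), covering 41.4 kb. In WT the left end held 5 stretches that covered 30.3 kb and the right end 6 that covered 23.4 kb. The longest WT stretch lay outermost at both ends, from 0 to 18.3 kb on the left (mean at least 1.98) and from 0.3 to 16.8 kb on the right (mean at least 1.75). Of their tiles, 36 of 40 on the left and 30 of 44 on the right were saturated, so their highest running means, 2.70 at 12.6 kb and 2.45 at 3.0 kb, are minimum values too. The next highest WT stretches were short: those from 44.7 to 46.2 kb and from 47.7 to 49.8 kb on the left reached 1.55 and 1.54, and those from 33.6 to 34.8 kb and from 39.0 to 39.6 kb on the right reached 1.63 and 1.30. In cdc10-v50 the highest running mean was 4.44 at 9.6 kb on the left and 4.22 at 5.7 kb on the right.

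Without Clr4 the Psc3 ratio was lower than in WT over most of both ends. Over the tiles measured on both arrays of the left end the median was 0.16 in clr4d and at least 1.15 in WT, and the median difference was at most -1.01 (SD 0.95, 115 tiles), so that WT was at least 2.02-fold above clr4d. On the right it was 0.01 in clr4d and at least 0.94 in WT, with a difference of at most -0.92 (SD 0.82, 152 tiles), or at least 1.89-fold. At least 58 of the 115 left tiles (50.4%) and 73 of the 152 right tiles (48.0%) were lower in clr4d by 2-fold or more, against 5.19% of all genome tiles. Higher by 2-fold or more were at most 1 and 0 tiles, against 4.83% of the genome. The difference was negative in all 10 steps of both ends. It was at most -2.16 (SD 1.07) and -1.87 (SD 0.91) in the outermost steps. At 35 to 40 kb on the left it was at most -0.40 (SD 0.72), and at 40 to 45 kb on the right, with 0 saturated tiles, it was -0.08 (SD 0.45). As measured, both are within the spread between tiles. So was the difference in every step from 30 to 45 kb on the left and from 25 to 45 kb on the right. Over tiles unsaturated on all arrays the median difference was -0.81 on the left (SD 0.71, 73 tiles) and -0.70 on the right (SD 0.69, 115 tiles).

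Single tiles gave larger values. Tiles named for their rank lie at least 2 kb apart, and ranks are those of measured values. The lowest left tiles, at 13.2, 6.9 and 3.9 kb, had clr4d ratios of -0.53, -0.71 and -0.56 against WT ratios of at least 2.62, 2.39 and 2.47. WT stood above clr4d there by at least 8.90-fold, 8.53-fold and 8.20-fold. The lowest right tiles, at 3.3, 9.3 and 11.7 kb, had -0.77, -0.74 and -0.31 in clr4d and at least 2.35, 2.35 and 2.39 in WT, which is at least 8.69-fold, 8.53-fold and 6.50-fold. All 6 lie in the outer 15 kb and are saturated in WT. The 1 left tile that was higher in clr4d by 2-fold, at 36.9 kb, had 0.02 in clr4d and -1.03 in WT. It lies beside the low point of the left end described below.

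**Figure D3:**
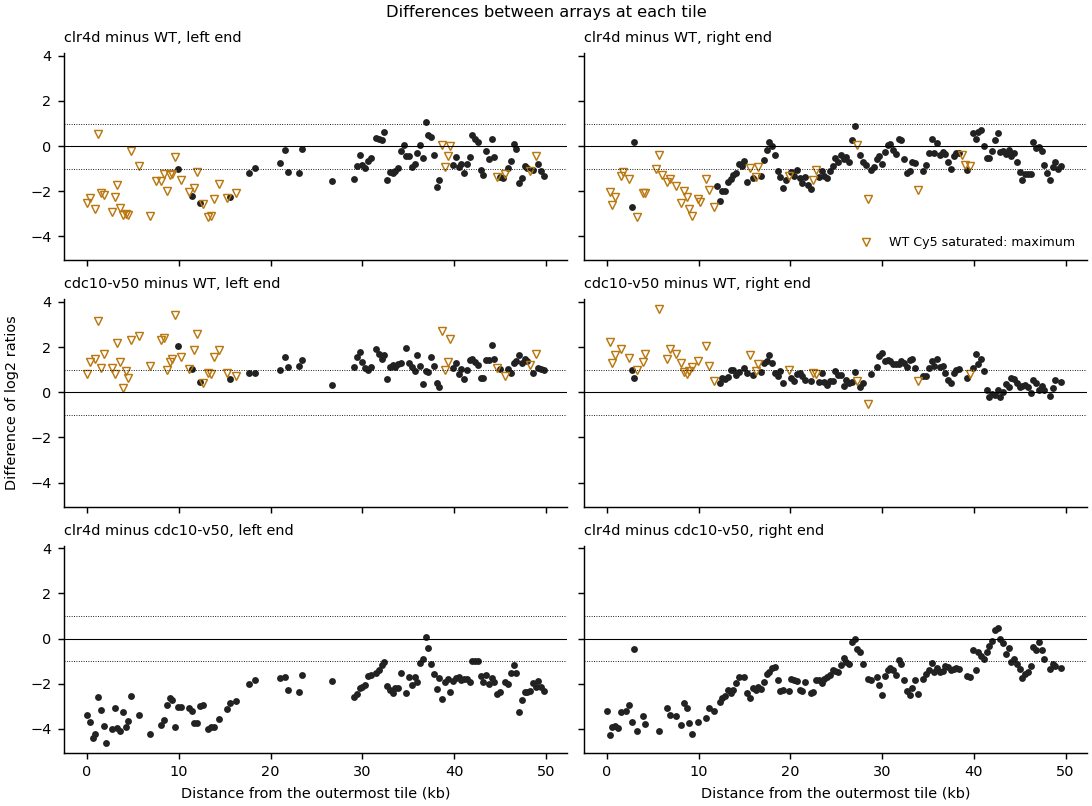
Difference of the centred log2 ratios at each tile against the distance from the outermost tile in kb, for clr4d minus WT, cdc10-v50 minus WT and clr4d minus cdc10-v50, left and right end. Open triangles are tiles saturated in WT Cy5, where the difference is a maximum; the dotted lines mark 2-fold, and 110 of 114 left tiles of clr4d minus cdc10-v50 lie at or below -1.

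In G1-arrested cdc10-v50 cells the ratio was higher than in WT at the tiles of the left end not marked saturated, and at most of those of the right end. On the left the median was 2.39 in cdc10-v50 and at least 1.15 in WT, with a median difference of at most 1.17 (SD 0.58, 112 tiles). On the right it was 1.82 and at least 0.92, with a difference of at most 0.84 (SD 0.57, 138 tiles). At most 80 left tiles (71.4%) and 50 right tiles (36.2%) were higher by 2-fold or more, against 2.97% of the genome. The measured difference reached 2-fold lower at 0 tiles, against 0.983% of the genome, a count that can be read only at unsaturated tiles. Over tiles unsaturated on all arrays the median difference was 1.13 on the left (SD 0.40, 71 tiles), or 2.19-fold, and 0.74 on the right (SD 0.47, 107 tiles), or 1.67-fold. The brightest of these tiles may still be limited in WT, so the folds may be maximum values. Of these tiles cdc10-v50 was the higher at 71 of 71 on the left and at 100 of 107 on the right. In the 3 left steps with 0 saturated tiles, from 20 to 35 kb, the difference was 1.25 (SD 0.23), 1.20 (SD 0.64) and 1.32 (SD 0.37). On the left it was at most 1.18 (SD 0.40) at 40 to 45 kb and 1.19 (SD 0.29) at 45 to 50 kb. On the right it was 0.44 (SD 0.61) and 0.25 (SD 0.20) in the same steps, where 0 of 32 tiles were saturated. The largest measured differences were found at 9.6, 1.2 and 38.7 kb on the left, with cdc10-v50 ratios of 5.15, 4.87 and 2.86 against at least 1.71, 1.72 and 0.15 in WT, and at 5.7, 0.3 and 10.8 kb on the right, with 5.40, 3.79 and 3.42 against at least 1.70, 1.57 and 1.36. All 6 were saturated in WT, so these differences are maximum values and give no fold.

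The mutants were scanned without saturation, so the comparison between them has no such bound. Genotype, culture temperature and G1 arrest cannot be told apart in it. On the left the median over shared tiles was 0.16 in clr4d and 2.41 in cdc10-v50, with a median difference of -2.22 (SD 0.95, 114 tiles), or a 4.66-fold lower ratio in clr4d. On the right it was 0.02 in clr4d and 1.82 in cdc10-v50, with -1.70 (SD 1.04, 141 tiles), or 3.24-fold. Lower in clr4d by 2-fold or more were 110 of 114 left tiles (96.5%) and 115 of 141 right tiles (81.6%), against 4.39% of the genome, and 0 tiles were higher, against 1.97% of the genome. The lowest left tiles, at 2.1, 6.9 and 13.2 kb, had -0.30, -0.71 and -0.53 in clr4d, against 4.34, 3.53 and 3.48 in cdc10-v50, which is 24.9-fold, 18.9-fold and 16.2-fold lower in clr4d. The lowest right tiles, at 0.3, 9.3 and 3.3 kb, had -0.47, -0.74 and -0.77 in clr4d, against 3.79, 3.49 and 3.33 in cdc10-v50, or 19.1-fold, 18.7-fold and 17.2-fold. By step the difference had its extreme of -3.66 (SD 0.62) in the outermost 5 kb on the left and -3.54 (SD 0.46) at 5 to 10 kb on the right. It was smallest at 35 to 40 kb on the left, with -1.59 (SD 0.70), and at 40 to 45 kb on the right, with -0.52 (SD 0.52).

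Each channel was also taken alone. Signals are given as log2 of the processed intensity minus the median of the arm tiles of the same channel. Over the left end the Cy5 median was -0.03 in clr4d (SD 1.57), 2.14 in cdc10-v50 (SD 1.43) and at least 1.23 in WT (SD 1.25). The Cy3 median of the left end was 0.04 in clr4d (SD 1.55), -0.37 in cdc10-v50 (SD 0.95) and -0.58 in WT (SD 0.89). On the right the Cy5 median was -0.16 in clr4d, 1.62 in cdc10-v50 and at least 0.66 in WT, and the Cy3 median was -0.13, -0.36 and -0.50. The Cy5 medians thus stood in the same order as the ratios. Over the left tiles unsaturated on all arrays the Cy5 median was -0.86 in clr4d, 1.48 in cdc10-v50 and -0.085 in WT, so the level against the arms depended on the bright tiles while the order did not. The input channel also differed between the arrays in the outer steps, where genotype and scan cannot be told apart for WT. In the outermost 5 kb the Cy3 median was 0.72 in clr4d, -0.29 in cdc10-v50 and -0.58 in WT on the left, and 0.98, -0.11 and -0.19 on the right. From 15 kb inward the median Cy3 difference of clr4d minus WT lay between -0.62 and 0.39 in every step of both ends, against 0.94 to 1.05 in the 3 outer steps of the left and 1.05, 1.00 and 0.49 in those of the right. In the same outer steps the Cy5 difference of clr4d minus WT was at most -1.28, -0.27 and -1.44 on the left and -0.52, -0.93 and -1.10 on the right, so the measured Cy3 difference was the larger in size at 5 to 10 kb on the left and in the outer 2 steps of the right. The clr4d minus cdc10-v50 difference in the outermost left step was -2.57 in Cy5 and 1.29 in Cy3, and on the right it was -2.66 and 0.93. Over tiles unsaturated on all arrays the clr4d minus WT difference was -0.87 in Cy5 (SD 0.54) and -0.20 in Cy3 (SD 0.82) on the left, and -0.71 (SD 0.54) and 0.06 (SD 0.52) on the right. For cdc10-v50 minus WT the same tiles gave 1.23 (SD 0.63) in Cy5 and 0.11 (SD 0.48) in Cy3 on the left, and 0.99 (SD 0.57) and 0.16 (SD 0.35) on the right. The part of the input channel in the ratios of the outer 15 kb was not tested. One left step was dim in both channels: between 40 and 45 kb the Cy3 median was -2.50 in clr4d, -1.99 in cdc10-v50 and -1.57 in WT, and the Cy5 median -2.41, -0.38 and -1.03.

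**Figure D4:**
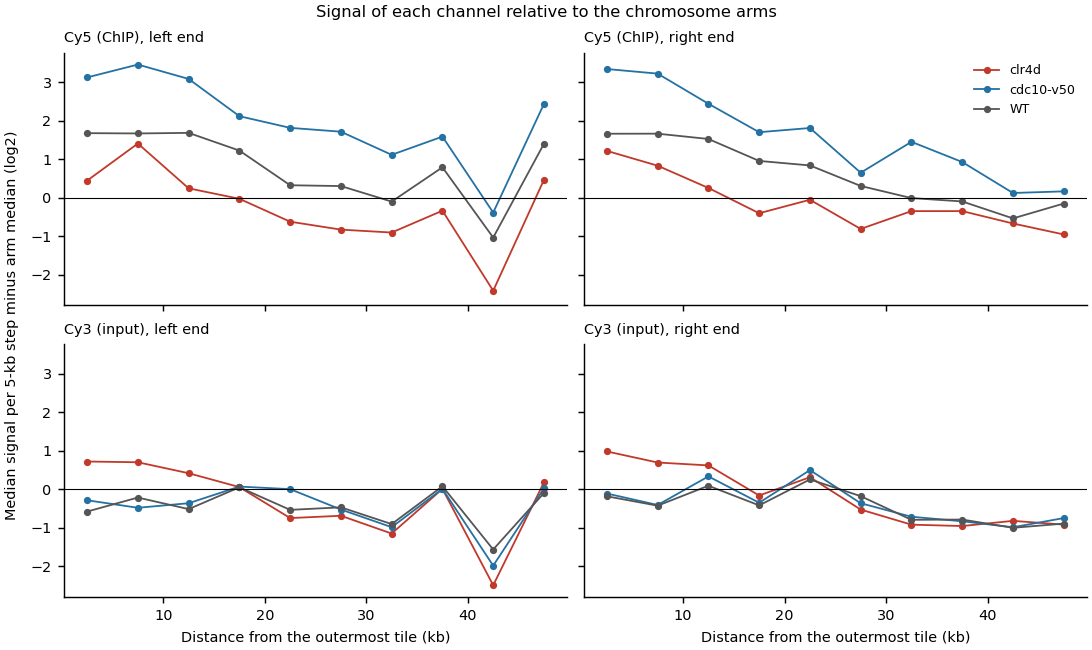
Median signal per 5-kb step of the ChIP channel (Cy5, top) and the input channel (Cy3, bottom), as log2 minus the median of the arm tiles, against the distance from the outermost tile in kb. WT Cy5 of the outer steps is limited by saturation; clr4d Cy3 is the highest input signal in the outer 15 kb of both ends, at 0.72 and 0.98 in the outermost steps.

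The cdc10-v50 enrichment had breaks, in which the other arrays were low only in part. Outside the cdc10-v50 stretches lay 1 interval on the left and 3 on the right. The left interval, from 36.3 to 37.2 kb, held 4 tiles with means of -0.61 in clr4d (SD 1.53), -0.03 in cdc10-v50 (SD 1.40) and -0.88 in WT (SD 1.099). Its low point was a single tile at 36.6 kb with -2.89 in clr4d, -2.00 in cdc10-v50 and -2.37 in WT, the lowest tile of the left end on each array. The processed intensities there were 245 in Cy5 and 1870.1 in Cy3 for clr4d, 1087 and 4525 for cdc10-v50, and 827 and 3806 for WT, so the input was bright and the ChIP signal was dim. On the right the interval from 25.5 to 28.2 kb had means of -0.29 in clr4d (SD 0.42), 0.50 in cdc10-v50 (SD 0.31) and -0.00 in WT (SD 0.24) over 10 tiles. The interval from 41.4 to 43.5 kb had 0.26 in clr4d (SD 0.16), 0.40 in cdc10-v50 (SD 0.37) and 0.41 in WT (SD 0.36) over 8 tiles. There the means of the 3 arrays differed by less than the SD between cdc10-v50 tiles, and that of clr4d lay above its median over the right end. The innermost interval, from 46.8 to 49.5 kb, had 0.06 in clr4d (SD 0.45), 1.02 in cdc10-v50 (SD 0.37) and 0.80 in WT (SD 0.23). The lowest WT tiles of the right end fall at 27.0 kb (0.49 in clr4d, 0.51 in cdc10-v50 and -0.41 in WT), 42.6 kb (0.33, -0.14 and -0.24) and 36.0 kb (0.41, 1.74 and 0.27). The first of these was dim, with Cy3 intensities of 22.5, 58.3 and 85.4. On the left the next tiles by the same rule, which passes over the neighbours of the tile at 36.6 kb, were those at 38.7 and 4.8 kb, with WT ratios of at least 0.15 and 0.23. Both were saturated in WT, so their rank is not settled, and their Cy3 signals stood 1.52 and 1.46 above the arms.

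Within the ends, tiles high in cdc10-v50 tended to be high in WT, and clr4d was less like either than it was over the chromosome arms. Across tiles the Pearson correlation between cdc10-v50 and WT was 0.79 on the left (112 tiles) and 0.81 on the right (138 tiles), close to the 0.78 of the chromosome arms. Between clr4d and WT it was 0.08 on the left (115 tiles) and 0.03 on the right (152 tiles), where the arms gave 0.62. Between clr4d and cdc10-v50 it was 0.32 (114 tiles) and 0.13 (141 tiles), where the arms gave 0.74. Spearman's rho for the same pairs was 0.74 and 0.78, -0.17 and -0.09, and 0.04 and 0.10. From 20 to 50 kb the Pearson correlation between clr4d and cdc10-v50 was 0.64 on the left (73 tiles, rho 0.39) and 0.33 on the right (91 tiles, rho 0.34), and between clr4d and WT it was 0.39 (75 tiles, rho -0.01) and 0.06 (98 tiles, rho 0.04). Over the unsaturated tiles of both ends at that distance it was 0.47 between clr4d and cdc10-v50 (150 tiles). These tiles share arrays and neighbours, so they are not independent, and saturation flattens the WT values.

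A few places stood out in clr4d. The highest left tiles were at 1.2, 9.9 and 32.4 kb, with clr4d ratios of 2.26, 1.31 and 1.22, cdc10-v50 ratios of 4.87, 4.35 and 2.26, and WT ratios of at least 1.72, of 2.32 and of 0.59. The highest right tiles were at 3.0, 5.4 and 39.9 kb, with clr4d ratios of 2.79, 1.40 and 1.29 and WT ratios of 2.63, at least 2.40 and 0.72. At 3.0 and 39.9 kb cdc10-v50 had 3.26 and 1.81. In WT Cy5 the tiles at 9.9 kb on the left and 3.0 kb on the right were unmarked but at the level of saturated tiles. Their WT ratios of 2.32 and 2.63 may thus be minimum values too. The tiles at 1.2 kb on the left and 3.0 kb on the right were isolated: their neighbours on either side, chosen after their values were seen, had clr4d ratios of -0.90 and 0.20 on the left and -0.34 and -0.77 on the right. Their Cy5 intensities in clr4d were 14665 and 7443, and their Cy3 intensities 3139 and 1103. The tiles at 9.9 and 5.4 kb belonged instead to low bumps several tiles wide, at which cdc10-v50 also peaked, with 5.15 at 9.6 kb on the left and 5.40 at 5.7 kb on the right. The right cdc10-v50 peak rested on the tile at 5.7 kb alone, as its neighbours at 5.4 and 6.0 kb were left out as non-uniform.

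These bumps are part of a likeness between the ends. The outer 25 kb of the right end matched those of the left when moved inward by about 4 kb. Over tiles that then fell together the Pearson correlation of the ratios was 0.81 in clr4d at a displacement of 3.6 kb (30 tiles), 0.91 in cdc10-v50 at 4.2 kb (22 tiles) and 0.75 in WT at 3.6 kb (27 tiles). With no displacement it was -0.06 (42 tiles), 0.66 (37 tiles) and 0.47 (38 tiles). At those displacements left and right tiles differed on average by -0.05 (SD 0.33) in clr4d, -0.11 (SD 0.37) in cdc10-v50 and 0.02 (SD 0.46) in WT. In the outer 15 kb, 34 of 37 left and 28 of 40 right tiles were saturated in WT. The WT correlation and difference thus set minimum values largely against minimum values. The displacements were chosen as the best among steps of 0.3 kb up to 9 kb either way, after the profiles were seen, and the highest correlation more than 1.5 kb away was 0.69, 0.82 and 0.67. The input channel gave other displacements: the Cy3 correlation was highest at 8.1 kb in clr4d (0.59, with 0.54 at 3.6 kb), at -8.4 kb in cdc10-v50 (0.51) and at -4.8 kb in WT (0.45). The edge of the high outer block shows the same offset. The largest inward drop of cdc10-v50 between 5 tiles on either side, a measure chosen after the profiles were seen, lay between 15.3 and 15.6 kb on the left and between 11.7 and 12.3 kb on the right. Across it the left mean was -0.40 outside and -0.19 inside in clr4d, 3.30 (SD 0.26) and 2.06 (SD 0.16) in cdc10-v50, and at least 2.11 and 1.25 in WT. The right means were -0.32 and -0.52 in clr4d, 3.23 (SD 0.32) and 2.02 (SD 0.12) in cdc10-v50, and at least 1.98 and 1.37 in WT. Tile names ending in the letter f numbered 47 on the left and 45 on the right, and those ending in m numbered 2 and 8; the sources used here do not give the letters' meaning. All 48 left tiles outside of 29.1 kb and all 46 right tiles outside of 16.8 kb carried one of them. Whether tiles of both ends hybridise to the same DNA was not tested.

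**Figure D5:**
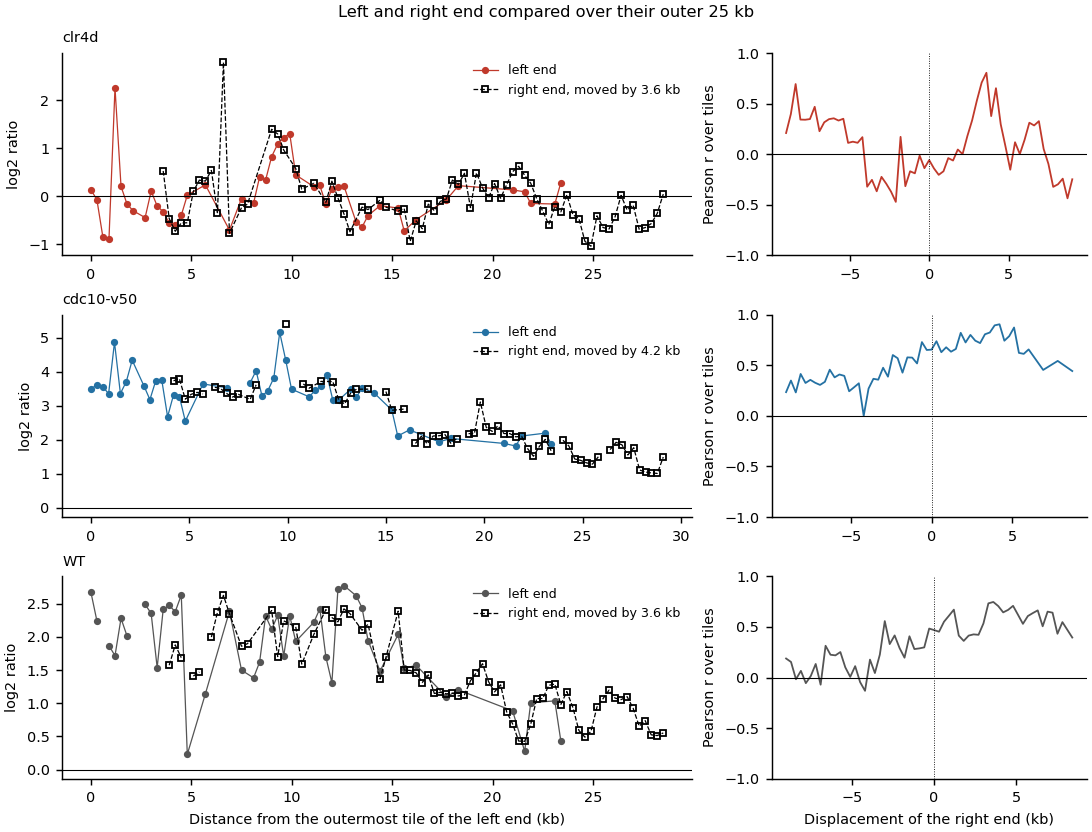
Left panels: centred log2 ratio in the outer 25 kb of the left end (filled) and of the right end (open) moved inward by the displacement of highest correlation, 3.6 kb in clr4d, 4.2 kb in cdc10-v50 and 3.6 kb in WT. Right panels: Pearson correlation over tiles against the displacement of the right end in kb, with maxima of 0.81, 0.91 and 0.75. Most WT ratios of the outer 15 kb are minimum values.

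Genes could be placed on the left end between 29 and 50 kb alone. There the input signal followed the GC content of the reference assembly best at a shift between 140 and 320 bp, with correlations of 0.59 to 0.74 over 69 tiles. The next best shift, between 9540 and 9760 bp, gave 0.49 to 0.54. The outer 20 kb of the left end gave no clear position, and the right end fitted best about 1500 bp away, so no gene is named in either. The genes covered by at least 3 tiles were the pseudogene SPBC1348.11, SPBC1348.12, annotated as a DNA-binding transcription factor, ght7, a hexose transporter gene, SPBPB8B6.02C, a urea transporter gene, and grt1 and fah1, which encode a transcription factor and an acetamidase and overlap each other. Over grt1, at the inner border, the mean ratio was 0.20 in clr4d (SD 0.47), 2.55 in cdc10-v50 (SD 0.17) and at least 1.28 in WT (SD 0.28, 10 tiles, 2 saturated). Over SPBPB8B6.02C it was 0.36 in clr4d (SD 0.31), 2.31 in cdc10-v50 (SD 0.22) and at least 1.28 in WT (SD 0.30, 8 tiles, 2 saturated). Over fah1, whose 5 tiles are all among those of grt1, it was 0.12 (SD 0.39), 2.46 (SD 0.17) and at least 1.21 (SD 0.28). The pseudogene SPBC1348.11 had 0.34 in clr4d (SD 0.26), 2.45 in cdc10-v50 (SD 0.09) and 1.26 in WT (SD 0.15, 5 tiles, none saturated). SPBC1348.12 had 0.37 (SD 0.24), 2.22 (SD 0.29) and 0.98 (SD 0.09, 4 tiles). Over ght7 it was 0.19 (SD 0.28), 2.28 (SD 0.57) and at least 0.75 (SD 0.46), with 4 of 5 tiles saturated in WT. All 6 had their lowest mean in clr4d. These means use unmoved positions. With positions moved by 300 or -300 bp, fah1 in clr4d had -0.10 or 0.35, and ght7 had -0.003 or 0.29. At SPBC1348.11 and SPBC1348.12, which have 0 saturated tiles, cdc10-v50 was the highest, and the low tile at 36.6 kb lies between SPBC1348.12 and ght7.

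The 50 kb next inward and the ends of chromosome I set the range in which these values lie. On the left the median ratio from 50 to 100 kb was 0.19 in clr4d (SD 0.61), 1.29 in cdc10-v50 (SD 0.67) and 0.41 in WT (SD 0.49). On the right it was -0.15 (SD 0.67), 0.42 (SD 0.92) and 0.25 (SD 0.68), and the cdc10-v50 mean of the 5-kb steps there was 2.09 (SD 0.32) at 55 to 60 kb and 0.29 (SD 0.66) at 60 to 65 kb. The outer 50 kb of chromosome I had higher measured medians in cdc10-v50 and WT and similar ones in clr4d: 0.05 in clr4d, 3.76 in cdc10-v50 and at least 2.03 in WT on its left, and 0.14 in clr4d, 3.38 in cdc10-v50 and at least 2.66 in WT on its right. Over the chromosome I tiles unsaturated on all arrays, the order of cdc10-v50 and WT differed between its ends. On its left the median difference of cdc10-v50 minus WT was 0.96 (SD 0.50), with cdc10-v50 the higher at 42 of 42 tiles. On its right it was -0.33 (SD 0.93), with cdc10-v50 the lower at 28 of 45 tiles. The share of tiles with a ratio of at least 1 in WT was 58.3% and 46.1% on the left and right of chromosome II, and 87.4% and 98.7% on chromosome I. With 1 array per group these differences between ends have no test.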

How the data were processed

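GFP-tagged Psc3 was measured by ChIP on 3 two-colour Agilent tiling arrays, 1 per group. The intensities of both channels were background-subtracted, spatially detrended and dye-normalised by the authors' Feature Extraction runs, per the file headers. The deposited log10 ratio and the deposited 0 or 1 marks for saturation and non-uniformity come from the same runs. The authors' deposited log2 table equalled minus the scanner ratio at all 41551 tiles (tolerance 0.001) and was used as an alternative. Neither headers nor labels name the array's genome build.

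From these, log2 of Cy5 over Cy3 processed signal was taken and centred on the median of all genome tiles, leaving out control and non-uniform spots. Arms exclude the outer 100 kb of chromosomes and the centromere surroundings. Tile positions were set against the reference assembly through the correlation of input signal with GC content. Named tiles were, per end and comparison, the 3 with the largest difference in each direction past 2-fold, the 3 highest in clr4d, the 3 lowest in WT, the 3 outermost, innermost and just outside, at most 1 per 2 kb in the ranked sets. Members and lists were chosen with earlier results of these data known. Centring, end means and the finding of stretches were tested on 1 simulated array without saturation. The comparisons between arrays, the displacements, the edge of the outer block and the gene positions were not tested in this way. Python 3.11.15 with numpy 2.4.6 and pandas 2.3.3, and R 4.3.3 with limma 3.58.1 for the normexp and loess alternatives, were used. The precision is limited by the number of arrays.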

Additional observations from a re-analysis of the deposited data

How the results depend on the processing

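All 66 alternatives for the median ratios and all 66 for the median differences moved the values by less than the SD between tiles. The means of the 5-kb steps were less stable: with normexp or loess, 26 of 120 moved by at least the SD between tiles of the step. The left clr4d minus WT difference ranged from -1.44 to -0.78 and the right from -1.13 to -0.69, cdc10-v50 minus WT from 1.00 to 1.28 and from 0.67 to 0.87, and clr4d minus cdc10-v50 from -2.44 to -1.87 and from -1.89 to -1.40. The right clr4d median, near 0, kept its sign in 10 of 11, and its outermost minus innermost step ran from -0.30 to -0.07 in 3 alternatives, against 0.04. On the right in WT that step difference, at least 1.06 with the main processing, ran from 0.46 to 1.68. Leaving out tiles saturated on any array removes tiles by construction. It left 2 tiles with a ratio of at least 1 in clr4d, 68 in cdc10-v50 and 29 in WT on the left, and 36 in WT on the right. Lower in clr4d than in WT were then 25 left and 43 right tiles, higher in cdc10-v50 than in WT 52 and 31, and lower in clr4d than in cdc10-v50 67 left tiles. The WT Cy5 level of the left end was then -0.085 relative to the arms, against 1.23 over all tiles. Leaving out tiles with a mark letter likewise left 1 left and 4 right tiles in clr4d, 63 and 75 in cdc10-v50, and 25 and 23 in WT, with 20 and 35 lower in clr4d than in WT, 50 and 30 higher in cdc10-v50 than in WT, and 62 and 72 lower in clr4d than in cdc10-v50. Loess gave 8 left clr4d tiles in place of 5 and 0.9 kb of clr4d stretches on the right in place of 0, and the cause was not tested. A running mean of 1.5 gave 12.3 kb of WT stretches on the left and 12 kb on the right. The left WT step from 40 to 45 kb, 0.62, was 0.04 with normexp and 1.14 with loess. The mean of SPBC1348.12 in WT was 0.73 with tile positions moved by -300 bp, an alternative chosen after seeing the data, as was leaving the highest clr4d tile of each end out of the displacement comparison, where the displacements stayed at 3.6, 4.2 and 3.6 kb. Normexp used the median signals of the spots. No paired analysis was possible because there was 1 array per group. What limits these values is the 1 array per group and, in the outer 15 kb, the saturation of WT Cy5.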
